A study of Mus musculus with 26 samples.

Results

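Acetylcholine handling was followed through 4 genes, read from RNA sequencing of mouse motor neuron spheroids: Chat (ENSMUSG00000021919), Slc18a3 (ENSMUSG00000100241), Slc5a7 (ENSMUSG00000023945) and Ache (ENSMUSG00000023328). They were picked out by gene symbol and are 4 of the 56941 genes in the tables and of the 21606 annotated there as protein-coding. All cells came from 1 embryonic stem cell line, HBG3, which carries a GFP reporter driven by HB9 (Mnx1) and has the genotype label heterozygous blastocysts. All libraries share differentiation with retinoic acid and purmorphamine, CNTF and GDNF from day 5, and seeding of spheroids of about day 8 on fibrin. The 26 libraries formed 5 groups: 4 on a magnetic array actuated at 4 Hz for 30 min each day, 4 labelled mechanical control on the same kind of array never actuated (static array here), 6 labelled high intensity biochem, 6 labelled low intensity biochem, and 6 labelled biochemical control. Per the series' design text, biochemical samples received medium from optogenetic muscle that was either optically stimulated or left unstimulated. Which intensity is which cannot be read from the labels, so both groups are called by their intensity. The labels do not say whether libraries came from separate cultures, so every p-value here measures the spread between libraries, which may be technical.

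A motor neuron signals to muscle with acetylcholine. Choline acetyltransferase, the product of Chat, joins choline to an acetyl group from acetyl-CoA, and the vesicular acetylcholine transporter, the product of Slc18a3, loads the transmitter into synaptic vesicles. After release, acetylcholinesterase, the product of Ache, splits acetylcholine in the synaptic cleft, and the high-affinity choline transporter, the product of Slc5a7, brings the freed choline back into the nerve ending for a new round of synthesis.

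Chat and Slc18a3 form a nested locus on chromosome 14. In the GENCODE annotation of GRCm38, Slc18a3 is a gene of 1 exon and 2413 bases that lies within the first intron of the Chat transcript Chat-201, on the same strand, 956 bases after the end of that transcript's first exon. None of the annotated Chat exons overlapped it (0 exon parts). An antisense RNA gene, Gm2990, overlaps Chat on the other strand without sharing exon sequence with it and held 1 to 32 counts in each of the 21 libraries analysed below. A long non-coding RNA gene, Gm42456, shares exon sequence with Ache on the other strand and was listed at 0 counts in the same libraries. No source used here states whether counting respected the strand, so intronic or antisense reads at these loci cannot be assigned from the tables.

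The sequence upstream of each gene is shown because Chat and Slc18a3, though nested, have separate start sites, and because the windows of the 4 genes differ in base composition. RefSeq windows (GRCm38.p6) of 250 bases before to 50 after the start were found for 4 of 4 genes, and the stretch printed, 5′ to 3′ on the gene's own strand, is the longest part of the upstream bases outside any annotated exon. It is chr14:32465990-32466159 (minus strand, 170 bases) for Chat and chr14:32464851-32465041 (minus strand, 191 bases) for Slc18a3. It is chr17:54299035-54299284 (minus strand, 250 bases) for Slc5a7 and chr5:137288058-137288253 (plus strand, 196 bases) for Ache. Capitals mark matches, on either strand and with overlapping matches counted, to GGGCGG (GC box), TAATTA (the core bound by LIM homeodomain proteins) or TATAAA (a core promoter element).
Chat: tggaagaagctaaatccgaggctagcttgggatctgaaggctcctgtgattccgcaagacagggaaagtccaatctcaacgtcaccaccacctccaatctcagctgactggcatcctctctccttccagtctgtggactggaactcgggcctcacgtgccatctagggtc
Slc18a3: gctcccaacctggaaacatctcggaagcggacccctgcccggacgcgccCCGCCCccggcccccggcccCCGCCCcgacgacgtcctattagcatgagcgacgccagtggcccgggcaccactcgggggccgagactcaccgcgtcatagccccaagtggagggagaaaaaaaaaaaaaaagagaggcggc
Slc5a7: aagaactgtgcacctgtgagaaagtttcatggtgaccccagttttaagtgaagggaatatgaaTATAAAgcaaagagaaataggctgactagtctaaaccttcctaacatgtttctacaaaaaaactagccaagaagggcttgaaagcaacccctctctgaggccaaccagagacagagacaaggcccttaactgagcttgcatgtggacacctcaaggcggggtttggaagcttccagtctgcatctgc
Ache: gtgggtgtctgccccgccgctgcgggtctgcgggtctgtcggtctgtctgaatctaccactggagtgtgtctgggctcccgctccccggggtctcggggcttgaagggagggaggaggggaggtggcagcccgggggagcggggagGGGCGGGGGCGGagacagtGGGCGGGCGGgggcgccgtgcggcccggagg
The Ache window held 4 GC boxes, some overlapping, and the Slc18a3 window held 2, whereas Chat and Slc5a7 held 0. The Slc5a7 window held 1 TATAAA, and TAATTA was at 0 in all 4 windows. Over all 32817 RefSeq windows of this length, 35.6% held GGGCGG, 13.6% TATAAA and 5.30% TAATTA. GC content was 74.0% for Ache, 67.0% for Slc18a3, 55.7% for Chat and 44.7% for Slc5a7, against a median of 52.7% over all windows. A match is a description of these letters only.

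Depth set which libraries could speak for these genes. The comparisons used the 21 libraries with at least 1000000 counts on protein-coding genes (actuated 4, static 3, high intensity 4, low intensity 5, control 5), whose totals ran from 1551334 to 13162635 counts. Totals were between 7269276 and 13162635 for the array libraries and between 1551334 and 3971348 for the biochemical ones, so platform and depth cannot be told apart. In the 5 libraries left out, totals ran from 1536 to 1457250 counts and the 4 genes together gave few reads: Slc5a7 had 13 counts in static replicate 3, 5 in high intensity replicate 5 and 0 in the other three. The largest of these totals was that of control replicate 4, where rRNA took 78.4% of counts and protein-coding genes held 272212 counts. High intensity replicate 4, with 243510 counts, listed all 4 genes at 0, and 3 counts there correspond to 12.3 counts per 1000000. Rank and level were then compared in TPM, the deposited values per transcript length. Over the 21 libraries, Ache averaged 27.98 ± 8.07 TPM (SD, n = 21) and Slc18a3 27.3 ± 9.48 TPM, and their median ranks stood at percentiles 82.9 and 82.7 of the protein-coding genes. Chat averaged 4.96 ± 2.65 TPM and Slc5a7 4.66 ± 2.76 TPM, at median percentiles of 52.2 and 51.6. In mean TPM over the 21 libraries, the transmitter-loading and transmitter-splitting genes were thus the abundant pair. The synthetic enzyme and the choline transporter were the scarce pair. For Chat and Slc5a7 the transcript length behind the TPM varied between libraries, as described below, so their levels are less certain.

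The motor neuron label was checked against 9 genes used as markers, among them Mnx1, Isl1, Lhx3 and Slit2, some of the 9 being shared with progenitors. In control 1 of the 9 was at 0 counts and in the other groups 0 of them, and 6 of 9 passed the low-count filter. Mnx1, the HB9 gene itself, lay between 2.38 and 17.8 CPM (normalised counts per 1000000, scaled by edgeR's TMM factors) over the 21 libraries. Pan-neuronal markers summed to between 5399 and 10764 CPM and astrocyte or radial glia markers to between 2296 and 4632 CPM, so the spheroids held more than 1 cell type. In such bulk samples fewer cells of a type and less RNA per cell cannot be told apart, which holds for every value below.

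The choline transporter gene Slc5a7 differed most between groups. The 3 static array libraries had 12.4, 8.93 and 4.93 CPM. The 5 control libraries had 24.7, 39.3, 36.9, 40.2 and 21.2 CPM. Every static library lay below every control library, with static replicate 4 the lowest of all 21. Slc5a7 averaged 8.77 ± 3.76 CPM (SD, n = 3) on the static array against 32.5 ± 8.86 CPM (n = 5) in control. It fell by 1.88 on the log2 scale (SE 0.31, 95% interval -2.53 to -1.23, edgeR quasi-likelihood adjusted p = 0.00392). It was 1 of 4 cholinergic genes called in this comparison, in which 0.713% of the 14730 genes tested were called and 3.62% were lower in all static than in all control libraries. The call was lost without static replicate 4 (log2 difference -1.59, edgeR adjusted p = 0.0562). With all 26 libraries it was lost as well (-1.42, edgeR adjusted p = 0.590, with 0.0134% of genes called). In that fit static replicate 3 enters with its 13 counts, or 21.2 per 1000000 of its total (exact Poisson 95% interval 11.3 to 36.2). Control replicate 4 enters there with 0 counts of Slc5a7 (upper end of the same kind of interval 2.53 per 1000000). The call was also lost in limma on log2(TPM + 1) of the deposited TPM (-0.80, adjusted p = 0.208), on log2(TPM + 0.1) (-1.07, adjusted p = 0.176) and on TPM rescaled to protein-coding genes (-1.44, adjusted p = 0.178).

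Other measures moved with this difference. Slit2, a guidance molecule made by motor neurons, was the 1 motor neuron marker called of 6 tested, at 50.6 to 64.6 CPM on the static array against 78.2 to 134 CPM in control (log2 difference -0.88, SE 0.19, edgeR adjusted p = 0.0333). The 9 motor neuron markers summed to 90.2 to 100.5 CPM on the static array and 107 to 185 CPM in control, a sum that is mostly Slit2 (mean 57.2 against 105.4 CPM). Of the 6 tested, 3 were lower and 3 higher on the static array, among the latter Olig2 (mean 19.1 against 10.9 CPM), a gene of motor neuron and oligodendrocyte progenitors. Astrocyte or radial glia markers summed to 3585 to 4334 CPM against 2347 to 3187 CPM, with 7 of 7 positive and 0 called, and oligodendrocyte lineage markers to 221 to 504 CPM against 84.2 to 167 CPM, with 5 of 5 tested positive and 0 called. Pan-neuronal markers overlapped, at 8220 to 10562 CPM against 7765 to 8683 CPM. Of these lists, 1 motor neuron marker and the oligodendrocyte gene Mog were at 0 in control, and the part of these values in the Slc5a7 difference was not tested. Static array and control also differ in platform and depth, which cannot be told apart from the groups. Their rRNA share did not overlap either, at 7.68% to 8.81% of counts on the static array and 11.2% to 16.4% in control. Its part in the difference was not tested.

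The other 3 cholinergic genes were not called between static array and control. Chat had 5.88, 7.59 and 4.81 CPM on the static array and 10.1, 15.8, 16.2, 7.95 and 6.67 CPM in control. Only static replicate 2 reached into the control range. The log2 difference of -0.88 (SE 0.36, 95% interval -1.62 to -0.15) had an edgeR unadjusted p of 0.0209. It did not pass the test after adjustment (edgeR adjusted p = 0.284). Slc18a3 had 49.0, 54.2 and 56.8 CPM on the static array and 50.0, 47.0, 62.3, 78.1 and 56.8 CPM in control, overlapping throughout, with a log2 difference of -0.14 (95% interval -0.50 to 0.22, edgeR adjusted p = 0.807). Ache had 54.4, 50.9 and 51.5 CPM against 66.7, 42.1, 42.3, 68.3 and 48.4 CPM. For Ache the static libraries lay inside the control range, and the log2 difference was -0.03 (95% interval -0.44 to 0.37, edgeR adjusted p = 0.965).

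**Figure D1:**
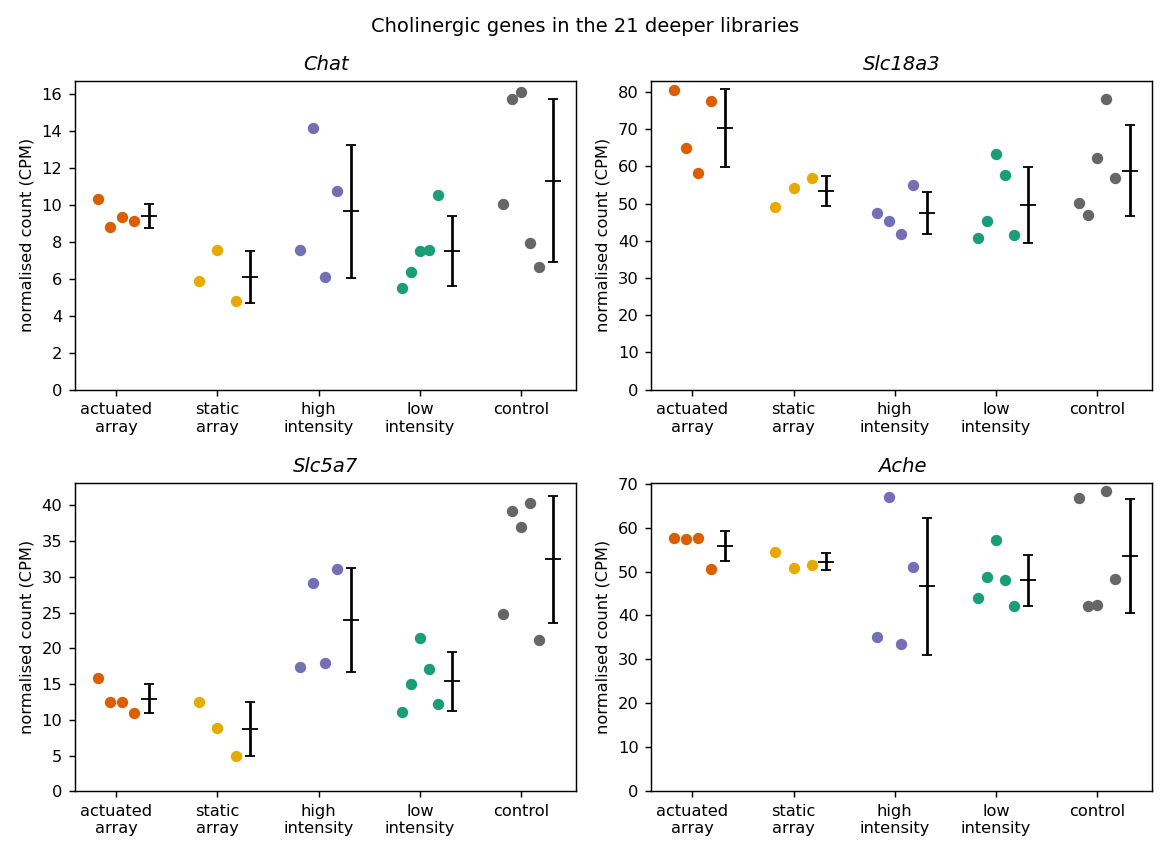
Normalised counts in CPM (y axis, from 0) of each gene in the 21 deeper libraries, by group (x axis). Points are libraries in replicate order, and bars give the mean and SD. Slc5a7 runs from a mean of 8.77 CPM on the static array to 32.5 CPM in control, whereas the group means of Ache lie between 46.6 and 55.8 CPM.

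Actuation of the array was compared with the static array, the comparison that addresses mechanical stimulation. Slc18a3 had 80.5, 64.9, 58.2 and 77.6 CPM in the actuated libraries, all above the 49.0 to 56.8 CPM of the static ones. Its log2 difference was 0.40 (SE 0.18, 95% interval 0.03 to 0.77), with an unadjusted p of 0.0364 and an edgeR adjusted p of 1. Chat had 10.3, 8.83, 9.38 and 9.16 CPM when actuated, again all above the static 4.81 to 7.59 CPM. The Chat difference was 0.62 on the log2 scale (SE 0.36, 95% interval -0.13 to 1.37, edgeR adjusted p = 1). These 2 of 4 genes were higher in every actuated than in every static library, as were 2.1% of the genes tested. Slc5a7 had 15.8, 12.5, 12.5 and 10.99 CPM, overlapping static replicate 1 (12.4 CPM), and differed by 0.56 (95% interval -0.08 to 1.20, edgeR adjusted p = 1). Ache, at 57.5, 57.5, 57.6 and 50.6 CPM, overlapped the static range and differed by 0.09 (95% interval -0.32 to 0.51, edgeR adjusted p = 1). None of the 4 cholinergic genes was called, and the share called over all 14730 genes was 0% as well. The number of genes at an unadjusted p under 0.05 was 56, DESeq2 called 5 genes and limma-voom 0, none of them a cholinergic gene. That number is below what chance alone would give, so the test was strict here. The model shares 1 estimate of spread over all groups (common dispersion 0.0923). With only the actuated and static groups fitted, the common dispersion was 0.0417. In that fit 402 genes had an unadjusted p under 0.05 and 0 were called. The intervals in this paragraph may therefore be too wide for the array libraries. Summed motor neuron markers were 102 to 120 CPM when actuated against 90.2 to 100.5 CPM when static, again mostly Slit2 (mean 66.4 against 57.2 CPM), with 4 of 6 tested markers higher, 2 lower and 0 called. Their part in the higher Chat and Slc18a3 values was not tested.

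Low intensity was compared with control next. Slc5a7 had 11.1, 15.0, 21.5, 17.1 and 12.2 CPM in the low intensity libraries, against 21.2 to 40.2 CPM in control. The groups met only at low intensity replicate 3 (21.5 CPM) and control replicate 6 (21.2 CPM). The log2 difference was -1.08 (SE 0.27, 95% interval -1.63 to -0.53), and its edgeR adjusted p of 0.0580 missed the threshold of 0.05. None of the 4 genes was called (0 of 4), against 0.597% of genes tested and 2237 genes at an unadjusted p under 0.05. DESeq2 (adjusted p = 0.0109) and edgeR without the low-count filter (adjusted p = 0.00821) did call Slc5a7, whereas limma-voom did not (-0.82, adjusted p = 0.305). The edgeR call also appeared when static replicate 4 (adjusted p = 0.0481), high intensity replicate 3 (0.0428), low intensity replicate 3 (0.0286) or control replicate 6 (0.0373) was left out. On deposited TPM the direction turned (0.07 in limma on log2(TPM + 1)), whereas on TPM rescaled to protein-coding genes it did not (-0.58, limma adjusted p = 0.467). Chat, at 5.53, 6.37, 7.49, 7.59 and 10.5 CPM, overlapped control and differed by -0.59 (95% interval -1.25 to 0.06, edgeR adjusted p = 0.386). Slc18a3, at 40.7, 45.3, 63.4, 57.5 and 41.5 CPM, differed by -0.25 (95% interval -0.57 to 0.08, edgeR adjusted p = 0.487). Ache, at 44.0, 48.7, 57.2, 48.0 and 42.2 CPM, differed by -0.16 (95% interval -0.52 to 0.21, edgeR adjusted p = 0.729). Both of these genes overlapped control. Motor neuron markers summed to 95.6 to 130.2 CPM in low intensity against 107 to 185 CPM in control, with Slit2 at a mean of 77.3 against 105.4 CPM and Olig2 at 15.3 against 10.9 CPM. Of the 6 tested, 4 were lower and 2 higher in low intensity with 0 called, and their part in the Slc5a7 values was not tested.

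In high intensity, Slc5a7 had 17.4, 29.2, 17.99 and 31.1 CPM, with replicates 1 and 3 below the lowest control library and replicates 2 and 6 inside the control range. Its log2 difference was -0.43 (95% interval -1.002 to 0.135, edgeR adjusted p = 0.473). Chat had 7.57, 14.2, 6.13 and 10.7 CPM, spread as widely as control, and differed by -0.23 (95% interval -0.91 to 0.45, edgeR adjusted p = 0.795). Slc18a3 had 47.4, 45.4, 41.7 and 55.1 CPM and differed by -0.30 (95% interval -0.64 to 0.04, edgeR adjusted p = 0.387). Ache had 35.1, 66.9, 33.5 and 51.0 CPM, with replicate 2 about level with the highest control libraries and replicates 1 and 3 below all of them, and differed by -0.20 (95% interval -0.59 to 0.18, edgeR adjusted p = 0.648). None of the 4 genes was called, against 0.462% of all genes tested, with 2349 genes at an unadjusted p under 0.05, 467 called by DESeq2 and 0 by limma-voom. Fibroblast markers summed to 989 to 2449 CPM in high intensity and 409 to 973 CPM in control, skeletal muscle markers to 22.6 to 184 CPM and 8.46 to 100.6 CPM, with 0 members called in either list. Of these lists, the muscle genes Chrna1, Myod1 and Myog were at 0 in control and Ckm in high intensity. Pan-neuronal markers summed to 5399 to 7818 CPM in high intensity and 7765 to 8683 CPM in control, with 8 of 8 lower and 0 called. The part of these 3 lists in the values of the 4 genes was not tested.

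Between high and low intensity, Slc5a7 was 0.65 higher in high intensity on the log2 scale (95% interval 0.06 to 1.23). That difference had an unadjusted p of 0.0308 and an edgeR adjusted p of 0.612, and the groups overlapped between 17.4 and 21.5 CPM. Chat differed by 0.36 (95% interval -0.33 to 1.06, edgeR adjusted p = 0.848), Slc18a3 by -0.06 (95% interval -0.40 to 0.29, edgeR adjusted p = 0.965) and Ache by -0.05 (95% interval -0.43 to 0.34, edgeR adjusted p = 0.975). No cholinergic gene was called, with 0% called over all genes by edgeR, 1131 genes at an unadjusted p under 0.05, 41 called by DESeq2 and 0 by limma-voom.

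Whether actuation and high intensity moved the genes differently was tested as an interaction, the actuated minus static difference less the high intensity minus control difference. All 4 interaction values were positive and none passed the test. Slc18a3 gave 0.70 (SE 0.24, 95% interval 0.20 to 1.20, unadjusted p = 0.00845, edgeR adjusted p = 0.663) and Slc5a7 0.99 (SE 0.42, 95% interval 0.13 to 1.85, edgeR adjusted p = 0.713). Chat gave 0.85 (95% interval -0.16 to 1.86, edgeR adjusted p = 0.793) and Ache 0.30 (95% interval -0.27 to 0.86, edgeR adjusted p = 0.909). Over all genes edgeR called 0%, with 985 genes at an unadjusted p under 0.05, 5 called by DESeq2 and 0 by limma-voom. The median interaction value over all genes tested was -0.01. Pan-neuronal markers were positive in 8 of 8 (median 0.31), motor neuron markers in 4 of 6 and fibroblast markers in 0 of 8 (median -0.94). None of these markers was called, and their part in the 4 interaction values was not tested.

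**Figure D2:**
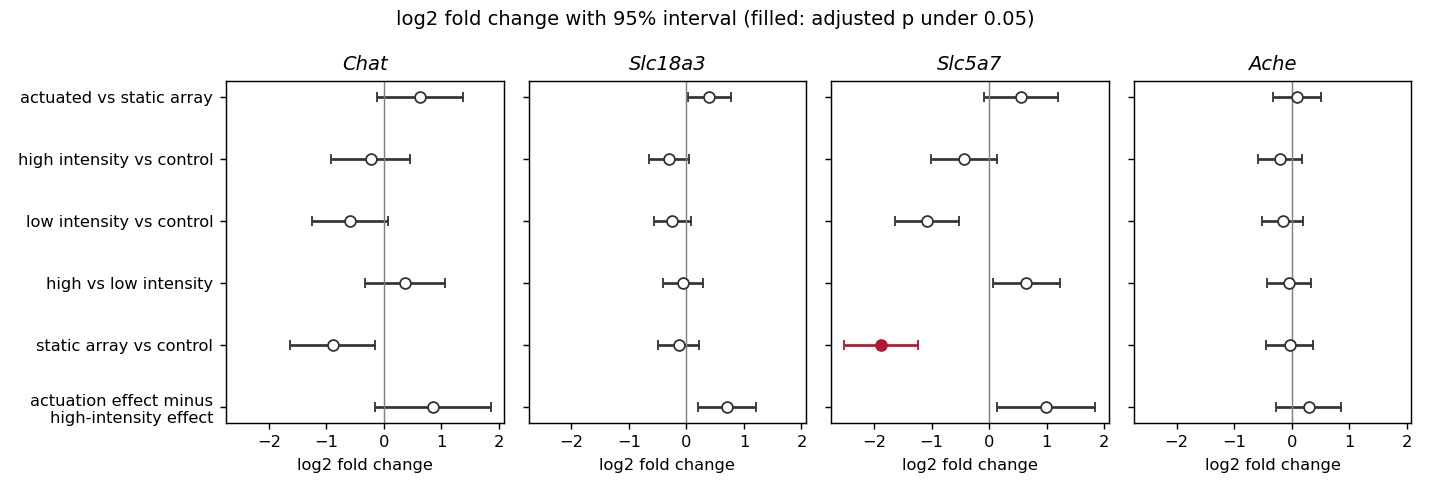
Log2 fold change of each gene (x axis) in the 5 comparisons and the interaction (rows), from edgeR on the 21 deeper libraries, with 95% intervals. The filled point, Slc5a7 on the static array against control at -1.88, is the 1 value past an adjusted p of 0.05. The comparisons share control and static libraries and are not independent of each other.

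Placed in order of group means, Slc5a7 rose from static array (8.77 CPM) through actuated array (12.9), low intensity (15.4) and high intensity (23.9) to control (32.5), and each neighbouring pair of groups overlapped. Like the static libraries, the actuated ones (10.99 to 15.8 CPM) all lay below every control library (21.2 to 40.2 CPM). That pair of groups was not tested. Chat followed nearly the same order, from static array (6.09 CPM) through low intensity (7.51), actuated array (9.42) and high intensity (9.66) to control (11.3), with each neighbouring pair overlapping. Slc18a3 was ordered otherwise, from high intensity (47.4 CPM) through low intensity (49.7), static array (53.3) and control (58.8) to actuated array (70.3), and its neighbours also overlapped. The group means of Ache, from 46.6 CPM in high intensity to 55.8 CPM on the actuated array, spanned less than the SD of 13.01 CPM within control. Spread within groups was smallest on the arrays for Ache, with a coefficient of variation of 3.56% on the static and 6.26% on the actuated array, against 33.6% in high intensity. For Chat it was 6.75% on the actuated array and 38.9% in control. Array libraries had more counts behind each value (Chat 39 to 102 counts) than biochemical ones (Chat 12 to 45 counts).

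The number of choline transporter reads per vesicular transporter read, a ratio taken within each library, does not depend on how libraries are scaled. Slc5a7 counts were 19.6%, 19.2%, 21.4% and 14.2% of the Slc18a3 counts in the actuated libraries and 25.4%, 16.5% and 8.68% in the static ones. They were 36.7%, 64.3%, 43.1% and 56.5% in high intensity and 27.2%, 33.1%, 33.9%, 29.7% and 29.5% in low intensity. The control libraries had 49.4%, 83.6%, 59.3%, 51.5% and 37.2%. Among the deeper libraries, every array library lay below every biochemical library, and every low intensity library lay below every high intensity and control library. The ratio was formed after the values were seen and is given without a test. The shallow libraries with reads of Slc18a3 did not keep to this order. Static replicate 3 stood apart from its group with 13 Slc5a7 counts to 24 Slc18a3 counts (54.2%). Control replicate 4 had 0 to 12 (0%), below every deeper library. High intensity replicate 5 had 5 to 15 (33.3%), below low intensity replicate 3 (33.9%).

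**Figure D3:**
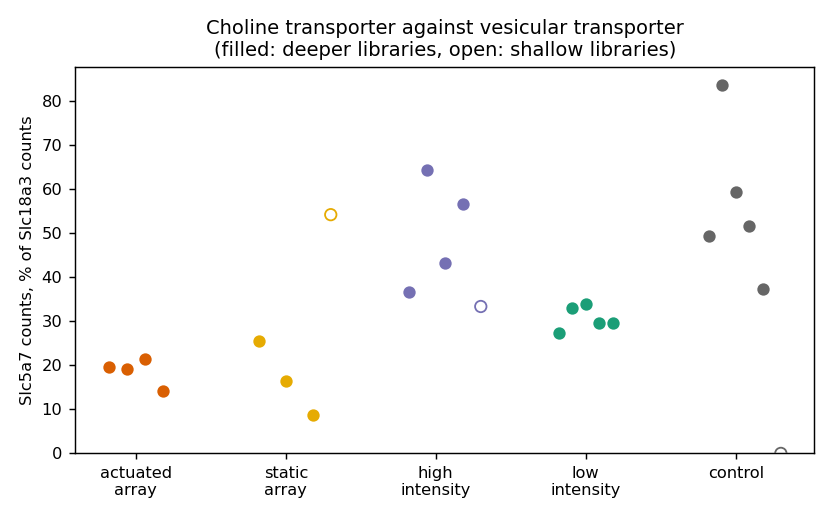
Slc5a7 counts as a percentage of Slc18a3 counts in the same library (y axis, from 0), by group (x axis), with filled points for the 21 deeper libraries and open points for the 3 shallow ones that had reads of Slc18a3. The deeper array libraries lie between 8.68% and 25.4%, and the deeper biochemical libraries between 27.2% and 83.6%.

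Of 6 pairs of these genes, Chat and Slc5a7 had the highest correlation in CPM over the libraries. Over 21 libraries Pearson's r of log2 CPM was 0.65 (permutation p = 0.0014, adjusted over 6 pairs 0.0082) and Spearman's rho 0.50 (permutation p = 0.0233, adjusted 0.0699). Without the 2 libraries farthest from the median of Chat, r was 0.50. After subtraction of group means r was 0.54 (permutation p adjusted 0.0772) and rho 0.57 (adjusted 0.0400), while Slc5a7 and Ache gave r = 0.41 and rho 0.54 (permutation p adjusted 0.160 and 0.0400) in the same setting. On log2(TPM + 1) the Chat and Slc5a7 values were 0.15 and 0.16 (permutation p adjusted 0.720 and 0.714). In the 7 array libraries r was 0.79 and rho 0.75 (exact permutation p adjusted 0.170 and 0.133), and in the 14 biochemical ones r and rho were both 0.67 (permutation p adjusted 0.0548 and 0.0661), so the sign held within each platform while the adjusted p did not pass 0.05 there. Slc18a3 and Ache gave r = 0.48 (rho 0.51, permutation p adjusted 0.0806 and 0.0699), and r fell to 0.35 without the 2 libraries farthest from the median of Slc18a3. Chat and its intronic neighbour Slc18a3 gave r = 0.13 (rho 0.19, permutation p adjusted 0.755 and 0.720), and the other three pairs r between 0.07 and 0.12. Within platforms some of these low values were higher. Slc18a3 and Slc5a7 gave r and rho of 0.61 in biochemical libraries (permutation p adjusted 0.0594 and 0.0665), and 0.39 and 0.57 in array ones. Chat and Slc18a3 gave 0.70 and 0.79 in array libraries (exact permutation p adjusted 0.170 and 0.133), and 0.10 and 0.28 in biochemical ones.

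**Figure D4:**
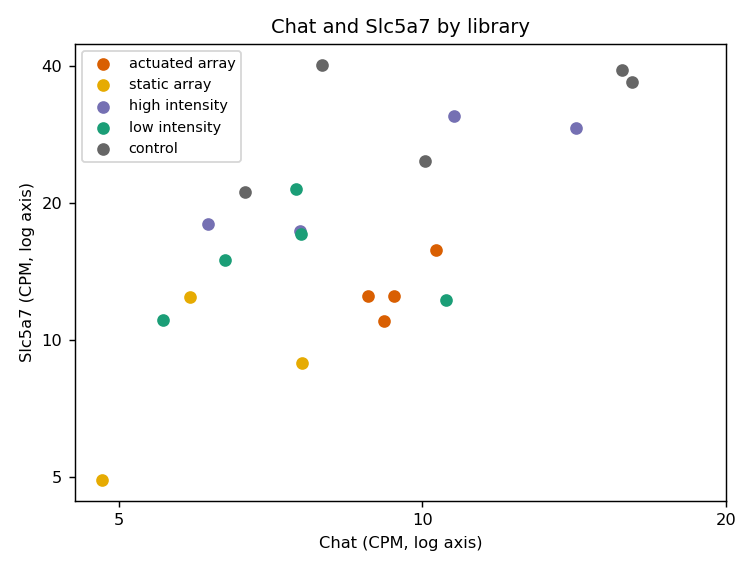
Slc5a7 (y axis) against Chat (x axis), both in CPM on log axes, with 1 point per deeper library coloured by group. Static replicate 4 is lowest in both genes, with 4.81 CPM of Chat and 4.93 CPM of Slc5a7, and control replicates 2 and 3 lie at the upper right.

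The genes most like each member were sought among 14729 genes by the correlation of deviations from group means over the 21 libraries, as a description only. For Slc5a7 these were Plppr3 (r = 0.88), Kif21b (0.86) and Crmp1 (0.85). For Chat they were Cfap298 (0.86), Sec11c (0.85) and Tfpt (0.85), and Slc5a7 came 555th with r = 0.54 and Slc18a3 7267th with r = -0.06. For Slc18a3 they were the row with the symbol PTPRG (ENSMUSG00000121513, 0.87), Alg2 (0.84) and Pcnx2 (0.81). For Ache they were Prune1 (0.91), Fam117b (0.87) and Ret (0.84). The highest of so many correlations is high by selection.

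The 2 deposited tables diverged for Chat and Slc5a7. The count divided by the TPM, scaled in each library by the same quotient over 7873 genes and then to the gene's own median library, stands for the transcript length that the TPM assumed. For Slc18a3, with 1 annotated transcript, this relative length stayed between 0.99 and 1.04. For Chat it fell to 0.18 in control replicate 1, 0.27 in static replicate 1 and 0.35 in low intensity replicate 1. Control replicate 1 thus had 35 Chat counts and 10.9 TPM, while control replicate 2 had 45 counts and 3.90 TPM. For Slc5a7 it fell to 0.30 in low intensity replicate 2, where 40 counts stood beside 13.5 TPM, and to 0.67 in static replicate 1. The ratio of the highest to the lowest value was 5.77 for Chat, larger than in 97.7% of the 7873 genes, 3.45 for Slc5a7 (88.7%), 1.47 for Ache and 1.04 for Slc18a3, against a median of 1.72. Those 7873 genes held at least 20 counts in every deeper library, whereas Chat held as few as 12, so its rank is against genes with more reads. The annotation lists 8 Chat transcripts of 220 to 2858 bases, 6 of them under 1000 bases, 3 Slc5a7 transcripts of 309 to 5180 bases and 9 Ache transcripts of 254 to 3687 bases. No source used here states which transcripts the authors' estimates used, so tests were run on counts and TPM was kept for level.

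**Figure D5:**
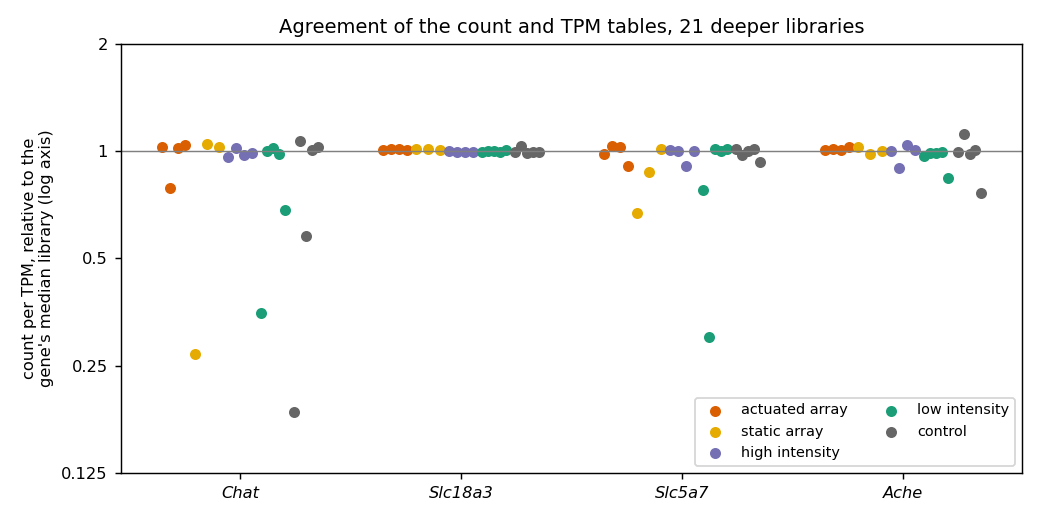
Count per TPM of each gene in each deeper library, relative to that gene's median library (y axis, log scale), by gene (x axis) and coloured by group. Slc18a3 stays at 0.99 to 1.04, whereas Chat reaches down to 0.18 and Slc5a7 to 0.30.

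Beyond these 4 genes, the supply and breakdown of acetylcholine and its receptors were followed as lists. Of 18 supply and turnover genes 15 passed the low-count filter, and 0 were called in any of the 5 comparisons or the interaction. Their median log2 difference was 0.14 on the static array against control, where the median of all genes tested was 0.00, and -0.01 for actuated against static. The most abundant were Pdha1, a subunit of the pyruvate dehydrogenase that makes acetyl-CoA (mean 73.1 TPM), Slc25a1, the mitochondrial citrate carrier (73.0 TPM), and Acly, the ATP citrate lyase that frees acetyl-CoA in the cytosol (70.4 TPM). Prima1 (1.05 TPM) and Colq (0.09 TPM), which anchor acetylcholinesterase to membranes and to the basal lamina, were too low to test. Of 21 acetylcholine receptor genes 9 were tested and 0 were called in any comparison. The receptor median was -0.20 on the static array against control and -0.01 for actuated against static. Chrna4, a neuronal nicotinic subunit, was the most abundant receptor gene (17.0 TPM), followed by Chrna7 (11.8 TPM) and the muscarinic receptor gene Chrm3 (9.88 TPM). Chrna4 lay at 68.8 to 94.9 CPM when actuated, 75.7 to 86.2 CPM when static and 27.3 to 62.1 CPM in control. Its difference between static array and control had the opposite sign to that of Slc5a7. It was not called (log2 difference 0.65, SE 0.22, edgeR adjusted p = 0.186).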

How the data were processed

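RNA sequencing of total RNA from mouse HBG3 spheroids gave 26 libraries in 5 groups taken from the labels. The authors deposited 1 table of estimated counts per gene, in whole numbers with no scaling for depth, and 1 table of TPM values that sum to 1000000 per library. Per the submitters' processing notes, BWA 0.7.12-r1039, bedtools 2.25.0, STAR and Salmon and the builds mm10, hg19 and GRCm39 were used, with no roles named. No source used here gives the counter, the annotation release or the strand setting. Per the labels' protocols, 4 ng RNA went into a Takara kit with cleavage of rRNA fragments between rounds of PCR, a larger input was taken for 8 unnamed samples of lowest concentration, and reads were paired, of 50 bases. Unique molecular identifiers are not named there, so intervals and limits on counts cover counting error only.

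The estimated counts were rounded to whole numbers, which left them as deposited, and were fitted with edgeR 4.0.16 (R 4.3.3): 1 model over the 21 libraries with at least 1000000 protein-coding counts, 1 coefficient per group, filterByExpr (14730 genes; 4 of 4 cholinergic genes kept), TMM scaling, the quasi-likelihood F-test and Benjamini-Hochberg adjustment over all genes tested, with a threshold of 0.05. The fit was tested on simulated data. Alternatives were all 26 libraries, DESeq2 1.42.0, its size factors in edgeR, limma 3.58.1 (voom, and log2 TPM with pseudocounts of 1 and 0.1), no filter, only the groups compared, a replicate block, removal of mitochondrial and rRNA genes, a threshold of 0.1, and leaving out each library. Correlations used 100000 permutations. All 325 pairs of libraries were compared by chi-square over genes, and the lowest statistic per degree of freedom was 4.74, so none was treated as a repeat. The 4 genes, the lists, the depth minimum and the naming rule (the 4 genes, called list genes, the 3 most abundant of each list, and the 3 genes most correlated with each of the 4) were chosen with earlier results of these data known. Genes named beside these were chosen after their values were seen, and a few list genes are not reported here. The lists were supply and turnover, receptors, other transmitters, and markers of motor neurons, neurons, fibroblasts, muscle, astrocytes or radial glia, oligodendrocytes, pluripotent, endothelial and erythroid cells and microglia.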

Additional observations from a re-analysis of the deposited data

Results flagged for a closer look

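Ache on the actuated array stood at 50.6 CPM in replicate 4, apart from the other three libraries at 57.5 to 57.6 CPM. The gap was 0.979 of the group's range, above Dixon's 95% critical value of 0.829 for 4 samples. The other 3 libraries lay within 0.2 CPM of each other, and replicate 4 was still inside the range of control.

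Slc5a7 in low intensity stood at 13.5 TPM in replicate 2, above the other four libraries at 2.51 to 5.60 TPM, with a gap of 0.718 of the range against a critical value of 0.710 for 5 samples. Its count there, 40, and its 15.0 CPM were inside the group's range, and its count per TPM was 0.30 of the gene's median. These 2 values came from 32 groups of values examined, of which chance alone sets apart about 1 in 20.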

How the results depend on the processing

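Over the 11 other ways of processing, 233 of 264 log2 differences of the 4 genes kept their direction and their side of the threshold, 25 reversed, 4 lost and 2 gained a call. Most reversals came with deposited TPM, whose median over all genes lay 0.53, 0.64 and 0.50 above 0 (log2(TPM + 1)) for high intensity, low intensity and static array against control, where 7SL RNA took 27.8% to 61.0% of control TPM against 11.9% to 32.7% elsewhere. With pseudocounts of 1 and 0.1, high intensity against control gave 0.32 and 0.33 for Slc18a3, 0.15 and 0.18 for Slc5a7 and 0.35 and 0.36 for Ache. Low intensity against control gave 0.49 and 0.51 for Slc18a3, 0.0701 and 0.0676 for Slc5a7, 0.61 and 0.63 for Ache and, with 0.1 only, 0.0024 for Chat. Chat in high against low intensity gave -0.15 and -0.20, static array against control 0.44 and 0.46 for Slc18a3 and 0.52 and 0.54 for Ache, and the Ache interaction -0.15 and -0.15. Elsewhere Chat in high intensity against control was 0.0849 with voom, Slc18a3 in high against low intensity 0.044 with TPM of protein-coding genes, and Ache on the static array against control 0.073 with all 26 libraries and 0.0544 without the filter; the cause was not tested. The number of cholinergic genes called on the static array against control was 0 with all 26 libraries and with the 3 TPM settings, and 0 to 1 on leaving out 1 library. For low intensity against control it was 1 with DESeq2, without the filter and at a threshold of 0.1, and 0 to 1 on leaving out 1 library. Leaving out 1 library moved Slc18a3 in high against low intensity between -0.14 and 0.0557, Ache there between -0.26 and 0.0769, and Ache on the static array against control between -0.11 and 0.0626. The correlation of Chat and Slc18a3 was -0.0587 on deviations from group means, -0.0867 on TPM and 0.93 with all 26 libraries; that of Chat and Slc5a7 was 0.54 on deviations, 0.79 in array and 0.67 in biochemical libraries and 0.15 on TPM. With all 26 libraries Chat and Ache gave 0.84, Slc18a3 and Slc5a7 0.78, Slc18a3 and Ache 0.93 (0.78 on TPM) and Slc5a7 and Ache 0.90, values that rest on the shallow libraries. Counts of all genes called by edgeR moved from 68, 88 and 105 (high intensity, low intensity and static array against control) to 6, 4 and 2 with all 26 libraries, 467, 471 and 381 with DESeq2, 0, 1 and 151 with voom, 700, 660 and 459 without the filter, 17, 21 and 42 with only the groups compared, 2324, 5440 and 1091 on log2(TPM + 1), 2292, 5537 and 1145 on log2(TPM + 0.1) and 29, 17 and 19 on TPM of protein-coding genes, and ran from 0 to 397, 2 to 264 and 18 to 141 on leaving out 1 library. The counts of 0 for actuated against static, high against low intensity and the interaction became 5, 41 and 5 with DESeq2 and 40, 126 and 246 without the filter. Deviations of same-numbered libraries had correlations of -0.22 to 0.18. Differently numbered libraries were not compared in this way, so these values cannot decide whether the numbers mark pairs, and the main fit did not use the numbers. With a replicate block the counts were 2, 8 and 36 and Slc5a7 on the static array against control was -1.76 (edgeR adjusted p = 0.0493). Protein-coding TPM and the leaving out of libraries from groups outside a comparison were chosen after seeing the data. Depth limits Chat most, at 12 to 45 counts in the biochemical libraries.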

Other observations

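Genes of other transmitters were measured beside the cholinergic ones. Of 18 genes listed, 7 passed the low-count filter and 0 were called by edgeR in any comparison. Slc17a6, the vesicular glutamate transporter VGLUT2, averaged 28.7 TPM, and Slc32a1, the vesicular transporter of GABA and glycine, 25.9 TPM, beside the 27.3 TPM of Slc18a3. Slc32a1 had 72.1 to 85.0 CPM on the static array, 58.9 to 74.3 CPM on the actuated array, 41.7 to 53.2 CPM in high intensity, 46.5 to 83.1 CPM in low intensity and 50.8 to 78.3 CPM in control. The list's median log2 difference was 0.25 on the static array against control, -0.06 for actuated against static and -0.29 for high intensity against control, with the medians of all genes tested at 0.00 in each.

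The muscle-type receptor gene Chrna1, counted in both the receptor and the muscle list, was at 0 in all 5 deeper control libraries, at 0.68 to 20.7 CPM in low intensity and at 0 to 6.54 CPM in high intensity. It was not called (edgeR adjusted p = 0.0548 for low intensity against control). Endothelial markers summed to at most 34.6 CPM, pluripotent markers to at most 18.7 CPM, microglia or macrophage markers to at most 29.3 CPM and erythroid markers to at most 1.23 CPM in any deeper library, with Hba-a1 and Hbb-bt at 0 throughout. Of these lists 2, 1, 2 and 0 genes passed the low-count filter, and 0 were called.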
